A study of Mus musculus with 36 samples.

Results

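The genes described here are 10 genes of insulin and insulin-like growth factor (IGF) signalling: Igf1, Igfals, Igfbp1, Igfbp2, Igfbp3, Igfbp4, Igf1r, Insr, Irs1 and Irs2. They were chosen by name, with earlier results of these data known. Every probe set with 1 gene symbol among these names was kept. This gave 25 of the 45037 probe sets tested, and 10 of the 18193 genes named on the array. RNA of whole brain and of liver had been hybridised to Affymetrix mouse expression arrays, 18 arrays for each tissue. All mice were males of 12 to 13 weeks of 3 inbred strains (C57BL/6J, DBA/2J and AKR/J), fed and watered freely. In each strain, mice deprived of sleep for the 6 h after light onset were killed at Zeitgeber time (ZT) 6, together with controls left in their home cages. Each of the 12 groups of tissue, strain and condition held 3 arrays, and each array carried RNA pooled from 3 mice, so that the errors and p-values given measure the spread between pools and not between single mice. For 4 arrays of AKR/J controls (the second and the third of each tissue) the source name gives ZT 0, whereas title and design give ZT 6. They were kept as ZT 6 controls, and calls of the genes named here that were lost without them are given beside the result. Where a gene has several probe sets they are numbered in the order of their identifiers, as in the plots.

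IGF1 is made mostly by hepatocytes under growth hormone and circulates in a ternary complex with IGFBP3 and the acid-labile subunit, the product of Igfals. The binding proteins hold IGF1 in the blood and limit its access to the IGF1 receptor. Insulin and IGF1 act through related receptor tyrosine kinases (Insr and Igf1r) and the docking proteins IRS1 and IRS2, and in the liver insulin represses Igfbp1 by keeping FoxO factors out of the nucleus.

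The 2 genes whose liver expression passed the test for sleep deprivation were Igfbp1 and Irs1, and their promoters are shown here because both hold the letters CAAAACAA, known from the Igfbp1 promoter as the core of an insulin response element to which FoxO factors bind. The sequences are those of RefSeq on GRCm38.p6, read 5′ to 3′ on the strand of the gene. The letters were searched on both strands of the window from 250 bases before to 50 bases after each annotated start. They occurred in 2.51% of 32851 such windows. Of the 10 genes, 9 had a window, and the letters were found in those of Igfbp1, Irs1 and Irs2. The Igfbp1 stretch lies at chr11:7197537-7197786 on the plus strand, with the match in capitals beginning 108 bases before the start.
Igfbp1: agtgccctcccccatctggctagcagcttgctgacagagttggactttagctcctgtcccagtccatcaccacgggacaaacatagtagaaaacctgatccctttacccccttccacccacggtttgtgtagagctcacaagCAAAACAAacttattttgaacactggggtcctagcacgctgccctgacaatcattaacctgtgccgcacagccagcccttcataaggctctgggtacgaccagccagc
The Irs1 stretch lies at chr1:82291455-82291574 and the Irs2 stretch at chr8:11008930-11008993, both on the minus strand. In both, the capitals mark an E-box (CACGTG, present in 7.15% of windows) and, on the opposite strand of the gene, the insulin response letters, so that these read as TTGTTTTG.
Irs1: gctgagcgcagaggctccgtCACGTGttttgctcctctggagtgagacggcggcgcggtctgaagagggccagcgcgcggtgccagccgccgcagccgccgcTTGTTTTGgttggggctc
Irs2: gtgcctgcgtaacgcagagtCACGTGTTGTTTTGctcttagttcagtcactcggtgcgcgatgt
In Irs2 the E-box and the insulin response letters were adjacent without overlap. CACGTG also occurred in a window of Igfbp2. Of the other motifs searched, GTAAACA, a FoxO core found in 3.65% of windows, and TTCNNNGAA, a STAT site found in 8.3%, occurred only in windows of Igfals among the 9 genes, and TGACGTCA, a cAMP response element found in 1.79%, occurred in none. A match describes the letters only.

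In liver, sleep deprivation raised Igfbp1 by 1.58 ± 0.26 (SE) on the log2 scale as a mean over the 3 strains, which is 2.98-fold, and Irs1 by 0.40 ± 0.08, which is 1.32-fold. These were 2 of the 25 probe sets, both higher, where 3.6% of all 45037 probe sets passed in either direction and 2.4% were higher. The test was limma's moderated test with Benjamini-Hochberg adjustment over all probe sets, here and below, with n = 3 arrays per group and an adjusted p under 0.05 as the threshold. The adjusted p was 0.0013 for Igfbp1 and 0.0097 for Irs1. The median change of the 25 probe sets was 0.02, beside -0.01 for all probe sets. RNA of a whole organ was measured, so that a change in the number of cells of a type and in RNA per cell cannot be told apart.

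Igfbp1, a binding protein that hepatocytes secrete and that falls in the blood when insulin rises, was measured by 1 probe set. In C57BL/6J liver its log2 values were 8.03, 9.68 and 8.72 on the control arrays and 11.35, 10.43 and 11.59 after sleep deprivation. In AKR/J they were 6.06, 6.85 and 7.18 in controls against 8.60, 8.23 and 6.78. In DBA/2J they were 7.79, 7.66 and 6.97 against 9.23, 8.52 and 8.41. The groups did not overlap in C57BL/6J or DBA/2J, while in AKR/J the third sleep-deprived array lay below 2 of the 3 controls. Groups without overlap were not counted over all probe sets, here or below.

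Taken strain by strain, the Igfbp1 difference was 2.31 ± 0.45 in C57BL/6J (adjusted p = 0.0173), 1.17 ± 0.45 in AKR/J (adjusted p = 0.358) and 1.25 ± 0.45 in DBA/2J (adjusted p = 0.234). In C57BL/6J liver 1 of the 25 probe sets passed (0.615% of all), in AKR/J 0 (0.711% of all), and in DBA/2J 1, a probe set of Igfbp3 (0.628% of all). In AKR/J liver 4 of the 25 had an unadjusted p under 0.05, beside 4369 of all 45037 probe sets. The larger estimate in C57BL/6J was not shown to differ from the others, since the strain by sleep deprivation interaction of Igfbp1 had an adjusted p of 0.827. The C57BL/6J call was lost when any of 4 arrays of that strain was left out: the adjusted p was 0.1258 without control 1, 0.0739 without control 3, 0.072 without sleep-deprived array 1 and 0.1311 without sleep-deprived array 3. The mean over strains passed under all 27 alternatives tried, between 1.45 and 1.79. Without the AKR/J controls labelled ZT 0 it was 1.79 ± 0.30 (adjusted p = 0.004).

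**Figure D1:**
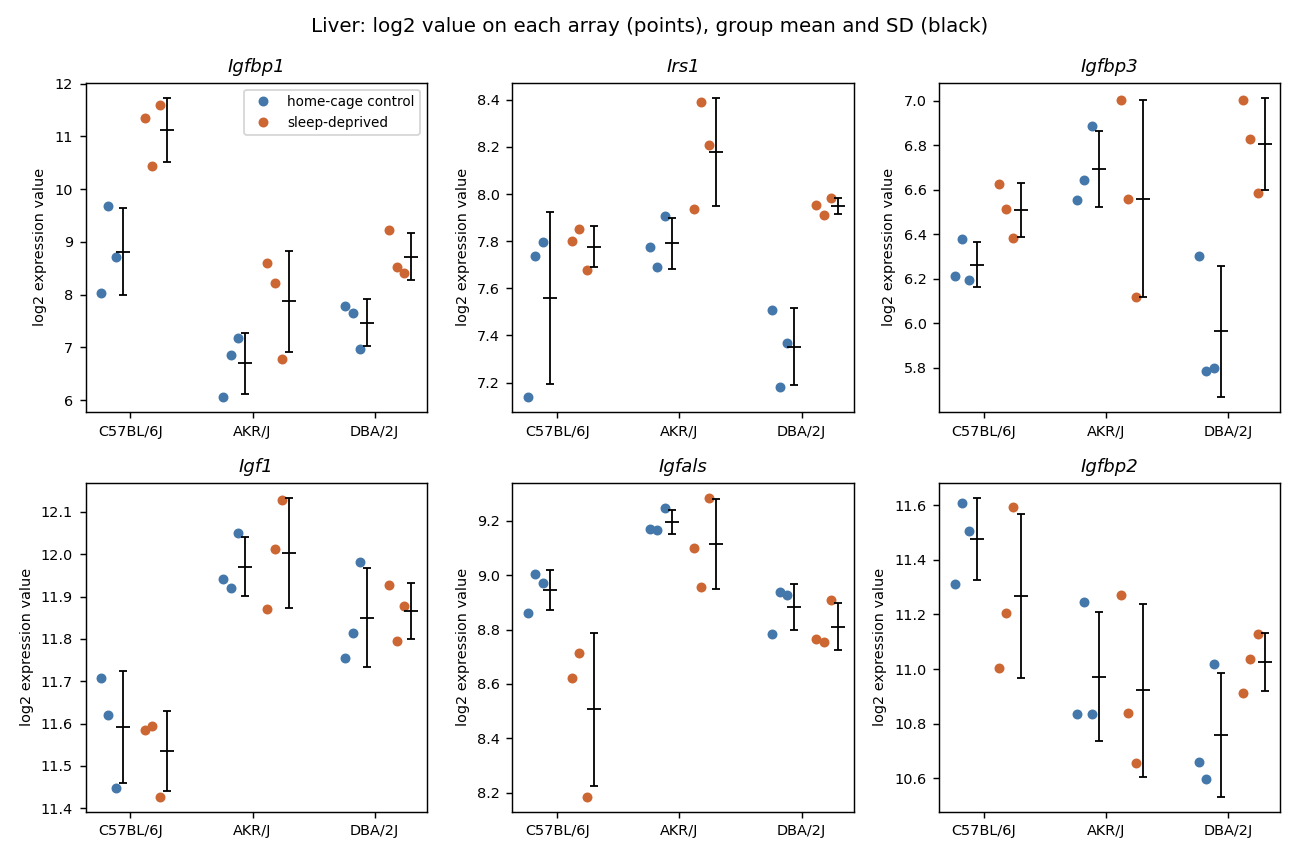
Log2 expression values of 6 genes in liver, each with its own vertical axis, for the 3 strains and both conditions; points are single arrays (3 per group) and black marks the group mean with SD. Igfbp1 spans 6.06 to 11.59, and the sleep-deprived arrays of C57BL/6J lie above every other array; Igfbp3 is shown by its probe set 1 and Igf1 by its probe set 4.

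Irs1, a docking protein that insulin and IGF1 receptors phosphorylate, was measured by 1 probe set. Its values in C57BL/6J liver were 7.14, 7.74 and 7.80 in controls and 7.80, 7.85 and 7.68 after sleep deprivation, so that the groups overlapped, and the first control lay lowest. In AKR/J they were 7.78, 7.69 and 7.91 against 7.93, 8.39 and 8.21, and in DBA/2J 7.51, 7.18 and 7.37 against 7.95, 7.91 and 7.98. Outside C57BL/6J every sleep-deprived array lay above every control of its strain. Strain by strain the differences were 0.60 (DBA/2J), 0.39 (AKR/J) and 0.22 (C57BL/6J), each ± 0.15, and none passed alone (adjusted p = 0.0739, 0.347 and 0.815). The mean over strains passed in 26 of 27 alternatives and missed in the fit that left AKR/J out (0.41, adjusted p = 0.0673). Irs2, the docking protein that carries much of the fasting-state insulin signal in liver, had 1 probe set, at which the liver difference was 0.15 ± 0.10 (adjusted p = 0.526) and the 95% interval ran from -0.06 to 0.37.

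Igf1, the ligand, had 4 probe sets, and none passed for sleep deprivation in liver. The brightest of them in liver, number 4, gave -0.003 ± 0.055, with a 95% interval from -0.12 to 0.11. The others gave -0.01, -0.19 and -0.20, and the last pair, numbers 2 and 3, had adjusted p-values of 0.159 and 0.214. Igfals gave -0.20 ± 0.07 (adjusted p = 0.129). Its C57BL/6J values were 8.86, 9.00 and 8.97 in controls and 8.62, 8.71 and 8.18 after sleep deprivation, without overlap, a difference of -0.44 ± 0.12 that did not pass (adjusted p = 0.129). The Igfals differences of the other strains were -0.08 (AKR/J) and -0.07 (DBA/2J).

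Igfbp3, the main carrier of circulating IGF1, had 2 probe sets, and their mean changes in liver were 0.32 ± 0.10 (number 1, adjusted p = 0.109) and 0.21 ± 0.07 (number 2, adjusted p = 0.153). In DBA/2J liver the first rose by 0.84 ± 0.18 (adjusted p = 0.0371), from 6.30, 5.79 and 5.80 in controls to 7.00, 6.83 and 6.59, without overlap. That call was lost in 8 of 26 alternatives. It was lost without DBA/2J control 2 or 3 (adjusted p = 0.0825 and 0.0777), without DBA/2J sleep-deprived array 1 or 2 (0.172 and 0.106), and narrowly without C57BL/6J control 3 (0.0522) or AKR/J sleep-deprived array 2 (0.0505). Quantile normalization within the tissue gave 0.0704 and a fit of these 2 groups alone 0.163.

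The second Igfbp3 probe set had estimates of both signs among the strains. Its values in C57BL/6J liver were 6.34, 6.46 and 6.52 in controls and 6.91, 6.84 and 6.94 after sleep deprivation, and in DBA/2J 6.42, 6.79 and 6.58 against 7.17, 7.00 and 7.14. In AKR/J they were 7.09, 7.29 and 7.12 against 7.19, 6.58 and 6.72. The differences were 0.46, 0.51 and -0.34, each ± 0.13, and the AKR/J groups overlapped through the first sleep-deprived array. The interaction had an adjusted p of 0.231, so that the strains were not shown to differ. In liver 0 of the 25 probe sets passed limma's interaction test (0.0333% of all did), and 2 had an unadjusted p under 0.05, both of Igfbp3. Of all 45037 probe sets, 3077 had such an unadjusted p. Without AKR/J sleep-deprived array 1 the adjusted p of the interaction was 0.0142, and the probe set then passed in each strain (0.46, 0.51 and -0.52, with adjusted p-values of 0.0422, 0.0268 and 0.0461 in C57BL/6J, DBA/2J and AKR/J). In the fit without any AKR/J array, both Igfbp3 probe sets passed for the mean of the other strains, at 0.54 (adjusted p = 0.0132) and 0.48 (adjusted p = 0.003). The mean of the first over all strains also passed with array weights (0.0499), without DBA/2J control 1 (0.0409) and without AKR/J sleep-deprived array 3 (0.0213).

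The remaining binding proteins and the receptors gave no call in liver. Igfbp2 gave 0.003 ± 0.097 (95% interval -0.20 to 0.21). The 6 probe sets of Igfbp4, several of which share a target transcript and are not independent, gave changes between 0.01 and 0.26 (the largest at number 1, adjusted p = 0.384). The 5 probe sets of Igf1r gave between -0.09 and 0.10 and the 3 of Insr between -0.07 and 0.01. The brightest Insr probe set, number 2, lay between 8.34 and 8.94 over the 18 liver arrays, and its 95% interval for the change was -0.12 to 0.14. All 5 Igf1r probe sets were dim in liver, with group means between 3.06 and 5.21.

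**Figure D2:**
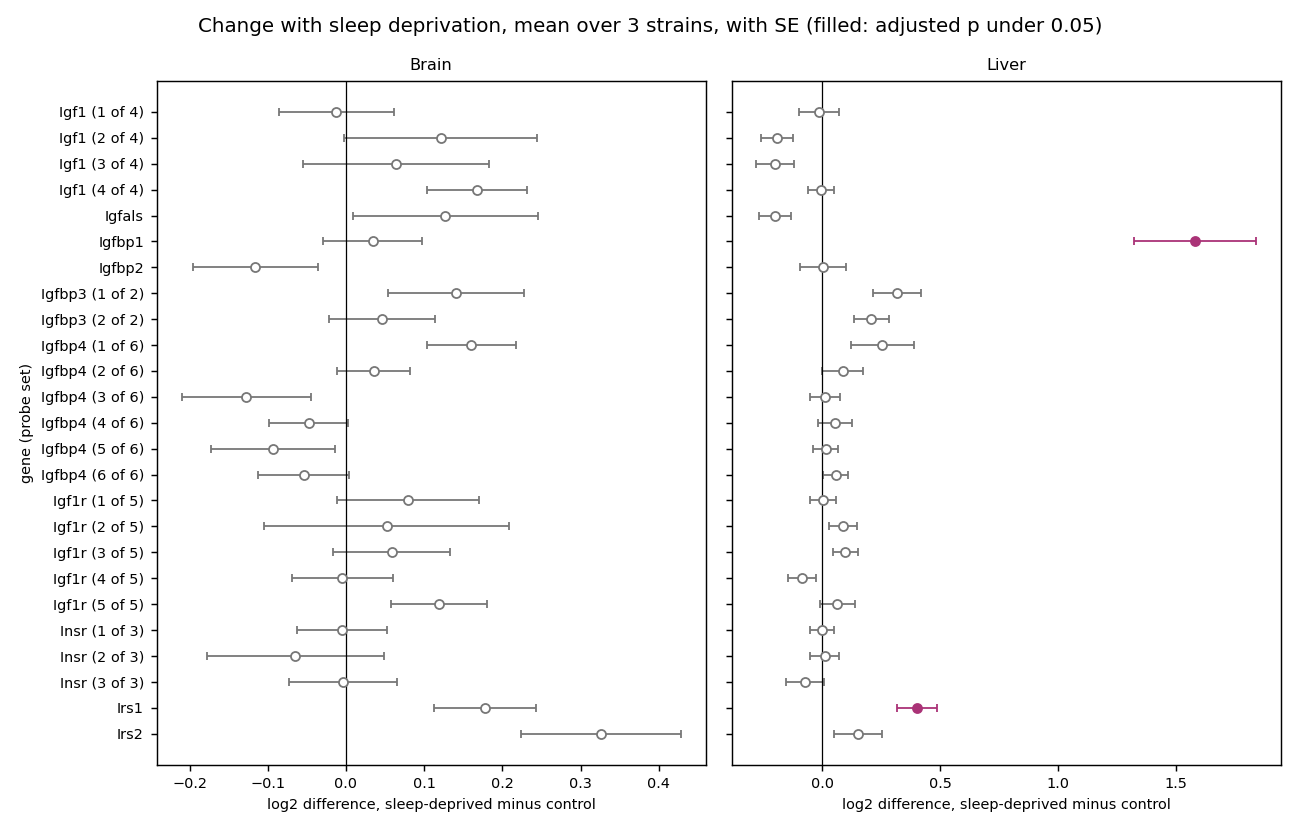
Change with sleep deprivation at each of the 25 probe sets, as the mean over 3 strains on the log2 scale with its SE, in brain (left) and liver (right); the horizontal scales differ. Filled points passed at an adjusted p under 0.05: Igfbp1 at 1.58 and Irs1 at 0.40 in liver, and none in brain.

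Other genes around this pathway were read from lists. The lists were chosen with earlier results of these data known, so that their counts are a description and not an independent test. Of 16 measured liver genes that insulin is known to repress, 5 rose and 0 fell, beside 2.97% of 18193 genes higher and 1.91% lower. The list's median change was 0.19, beside -0.02 for all genes. The 5 were Ccn2 (1.49 ± 0.15), a matricellular growth factor; Angptl4 (1.20 ± 0.13), an inhibitor of lipoprotein lipase; G6pc (0.61 ± 0.12) and Pck1 (0.49 ± 0.08), enzymes of gluconeogenesis; and Klf15 (0.47 ± 0.06), a factor of the fasting response. The count was 5 in all 27 alternatives.

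Of 17 measured liver genes that insulin is known to induce, 4 also rose, beside the same 2.97% of all genes. They were Elovl6 (0.52 ± 0.08), Mlxipl (0.43 ± 0.08), Acaca (0.41 ± 0.09) and Acacb (0.35 ± 0.09). Elovl6 and Acaca serve fatty acid synthesis, and Mlxipl its transcription. Beside 1.91% of all genes lower, 1 gene of this list fell: Srebf1, the sterol regulatory factor through which insulin drives lipogenesis, which fell by 0.56 ± 0.11 (adjusted p = 0.0051). The list's median was 0.24. In the fit without AKR/J 2 of these genes were higher and 0 lower: Acacb (adjusted p = 0.213), Mlxipl (0.0941) and Srebf1 (0.137) no longer passed. Without the AKR/J controls labelled ZT 0, 2 were higher and 1 lower, as Acacb (adjusted p = 0.0867) and Mlxipl (0.0526) were lost. Thus members of the repressed list and of the induced list were higher in the same livers, and no test compared the lists.

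**Figure D3:**
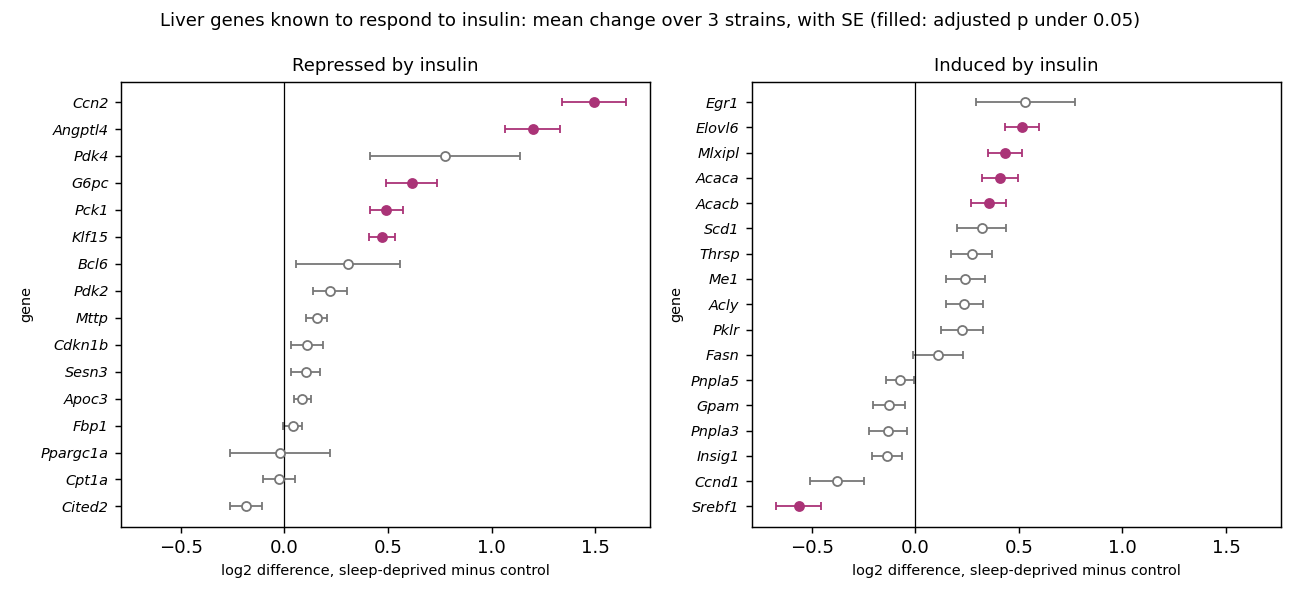
Change with sleep deprivation in liver of 16 genes known to be repressed by insulin (left) and 17 known to be induced by it (right), as the mean over 3 strains on the log2 scale with its SE; filled points passed at an adjusted p under 0.05. Filled points lie at 0.47 to 1.49 on the left, and at 0.35 to 0.52 and at -0.56 on the right.

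Further along the pathway in liver, again beside 2.97% of all genes higher, 3 of 21 genes of FoxO factors and mTOR complexes rose: Ddit4 (1.05 ± 0.15), an inhibitor of mTOR complex 1, Foxo1 (0.40 ± 0.06), and Rps6 (0.21 ± 0.05), a ribosomal protein. Rps6 passed in 8 of 27 alternatives and was lost without the controls labelled ZT 0 (adjusted p = 0.0548). Of 34 adaptors, PI3K and AKT genes and phosphatases, 1 rose (Sos1, 0.28 ± 0.06), which is near the 2.97% of all genes that rose, and of 18 other IGF ligands, binding proteins and proteases, 1 rose (Htra1, a protease that cleaves binding proteins, 0.24 ± 0.05). Htra1 was lost in the fit without AKR/J (adjusted p = 0.0672) and without the AKR/J controls labelled ZT 0 (0.089). Of 17 genes of the growth hormone receptor pathway, 0 passed limma's test. The smallest p in that list belonged to Socs3, a feedback inhibitor of cytokine receptors, at -0.83 ± 0.27 (adjusted p = 0.105). An unadjusted p under 0.05 was found for 5 of the 17 genes, and at 6992 of all 45037 probe sets.

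Markers of the cells that make up a liver were read beside these changes. Among all 18193 genes 2.97% were higher in liver and 1.91% lower. Of 8 endothelial markers 4 rose: Lyve1 (0.99), Flt1 (0.45), Pecam1 (0.42) and Tek (0.36). The rest did not pass: Stab2 (0.14), Kdr (0.05), Cldn5 (-0.01) and Cdh5 (-0.12). The summed level of all 8 ran from 9.02 to 9.46 in controls and from 9.28 to 9.67 after sleep deprivation. None of these 8 had a mean under log2 5. Of 9 markers of stellate cells and fibroblasts 0 passed, with a median of 0.19, and of 8 hepatocyte markers 1 passed, Tat (0.83), a hormone-responsive aminotransferase, while Alb gave 0.01. Of 10 neuronal markers 1 fell in liver, Syt1, by 0.58, where 8 of the 10 had a mean under log2 5. The part of these shifts in the changes of Igfbp3, Igfbp1 and Irs1 was not tested.

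Liver signals of these genes differed between strains, and Igfbp1 had the widest gap. Whether the probes match the sequence of each strain equally was not tested, and Igfbp1, Igfbp2 and Igfals have 1 probe set each. Averaged over both conditions, Igfbp1 was 6.43-fold lower in AKR/J than in C57BL/6J (-2.68 ± 0.32 on the log2 scale, adjusted p = 7.524e-06) and 3.66-fold lower in DBA/2J (-1.87 ± 0.32, adjusted p = 3.890e-04). Against C57BL/6J, 8 of the 25 probe sets passed in AKR/J, 6 higher and 2 lower (12.2% of all probe sets passed, 7.04% higher and 5.19% lower), and 5 passed in DBA/2J, 3 higher and 2 lower (12.2% of all, 7.13% higher and 5.11% lower). Between DBA/2J and AKR/J 1 passed (8.56% of all).

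Among controls alone the Igfbp1 difference from C57BL/6J was -2.12 for AKR/J and -1.34 for DBA/2J. Among sleep-deprived mice it was -3.25 for AKR/J and -2.40 for DBA/2J, each ± 0.45. The AKR/J and DBA/2J controls, between 6.06 and 7.79, all lay below the lowest C57BL/6J control, 8.03. The order of the means was C57BL/6J, DBA/2J, AKR/J in both conditions, and the difference of the last pair did not pass (0.81 ± 0.32, adjusted p = 0.141). Both differences from C57BL/6J passed in all 27 alternatives.

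The ligand ran the other way. All 4 Igf1 probe sets were higher in AKR/J than in C57BL/6J, by 0.40, 0.46, 0.54 and 0.42, and 3 of the 4 passed in DBA/2J, by 0.34, 0.39 and 0.29. At the brightest probe set the 6 C57BL/6J arrays lay between 11.43 and 11.71, the 6 AKR/J arrays between 11.87 and 12.13 and the 6 DBA/2J arrays between 11.75 and 11.98. The C57BL/6J arrays thus overlapped with neither of the other strains. Its difference was 0.42 ± 0.07 in AKR/J (adjusted p = 2.256e-04) and 0.29 ± 0.07 in DBA/2J (adjusted p = 0.0058). Probe set 1 gave 0.40 ± 0.10 in AKR/J (adjusted p = 0.0123, but 0.0864 without the controls labelled ZT 0) and 0.31 ± 0.10 in DBA/2J (adjusted p = 0.0536).

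Igfals, which encodes the third protein of the circulating complex, was also higher in AKR/J. Averaged over both conditions it exceeded C57BL/6J by 0.43 ± 0.08 (adjusted p = 0.0015). Group means were 9.19 in AKR/J against 8.95 in C57BL/6J among controls, and 9.11 against 8.51 after sleep deprivation. The DBA/2J minus AKR/J difference was -0.31 ± 0.08 (adjusted p = 0.0232). AKR/J controls read 9.17, 9.17 and 9.25 and DBA/2J controls 8.79, 8.94 and 8.93, without overlap. The difference between DBA/2J and AKR/J missed the threshold without the controls labelled ZT 0 (adjusted p = 0.142), and without any of AKR/J control 3 (0.0554), AKR/J sleep-deprived array 3 (0.0651), DBA/2J control 1 (0.0521) and DBA/2J sleep-deprived arrays 1 and 2 (0.0563 each). Igfbp3 probe set 2 was higher in AKR/J than in C57BL/6J by 0.33 ± 0.09 (adjusted p = 0.0209), a difference that stood at 0.73 in controls and at -0.07 after sleep deprivation. It was lost without the controls labelled ZT 0 (adjusted p = 0.164), without AKR/J control 2 (0.0587) and without C57BL/6J control 1 (0.0552).

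Igfbp2, a binding protein whose liver expression falls with insulin, differed from C57BL/6J by -0.42 ± 0.12 in AKR/J (adjusted p = 0.0232) and by -0.48 ± 0.12 in DBA/2J (adjusted p = 0.0105). Control values were 11.31, 11.61 and 11.51 in C57BL/6J, 10.66, 10.60 and 11.02 in DBA/2J, and 10.84, 11.25 and 10.84 in AKR/J. Every C57BL/6J control lay above every control of the other strains, whereas the sleep-deprived arrays overlapped. The AKR/J call was lost when any of 7 arrays was left out, among them C57BL/6J sleep-deprived array 3 with the highest adjusted p, 0.0705; the others were AKR/J controls 1 and 3, AKR/J sleep-deprived arrays 2 and 3, and C57BL/6J controls 2 and 3, with adjusted p-values of 0.0597, 0.0595, 0.0556, 0.0678, 0.062 and 0.0501. Irs1 stood close to the threshold, at 0.32 ± 0.10 in AKR/J over C57BL/6J (adjusted p = 0.0503) and at -0.33 ± 0.10 in DBA/2J against AKR/J (adjusted p = 0.0508), and each passed in 10 of 27 alternatives. No probe set of Igf1r, Insr or Igfbp4 passed between strains in liver in the reported fit. Insr probe set 1, dim in liver at 3.58 to 3.99, passed without C57BL/6J sleep-deprived array 1 (adjusted p = 0.0486 against AKR/J and 0.0473 against DBA/2J). Igfbp4 probe set 2 passed without C57BL/6J sleep-deprived array 3 (adjusted p = 0.0084 against AKR/J). Summed markers of Kupffer cells and microglia were lower in AKR/J liver (10.70 to 11.30 over its 6 arrays) than in C57BL/6J liver (11.50 to 11.82). DBA/2J liver, at 11.25 to 12.26, overlapped with both. The summed level of 7 pancreas markers was 8.89 to 9.33 in C57BL/6J liver, 9.98 to 10.38 in AKR/J and 10.33 to 10.53 in DBA/2J; Cela1, an elastase, was bright in liver (8.25 to 10.36), while Cpa1 (3.32 to 3.85) and Gcg (2.47 to 2.87) lay near the bottom of the scale. Summed markers of red blood cells were 8.89 to 9.25 in C57BL/6J liver, 9.24 to 9.59 in AKR/J and 9.69 to 10.02 in DBA/2J. That sum of 3 genes was nearly Alas2 alone (8.82 to 9.99), as Hba-a1 (3.04 to 3.46) and Slc4a1 (3.61 to 3.94) lay near the bottom of the scale. The part of these in the strain differences was not tested.

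**Figure D4:**
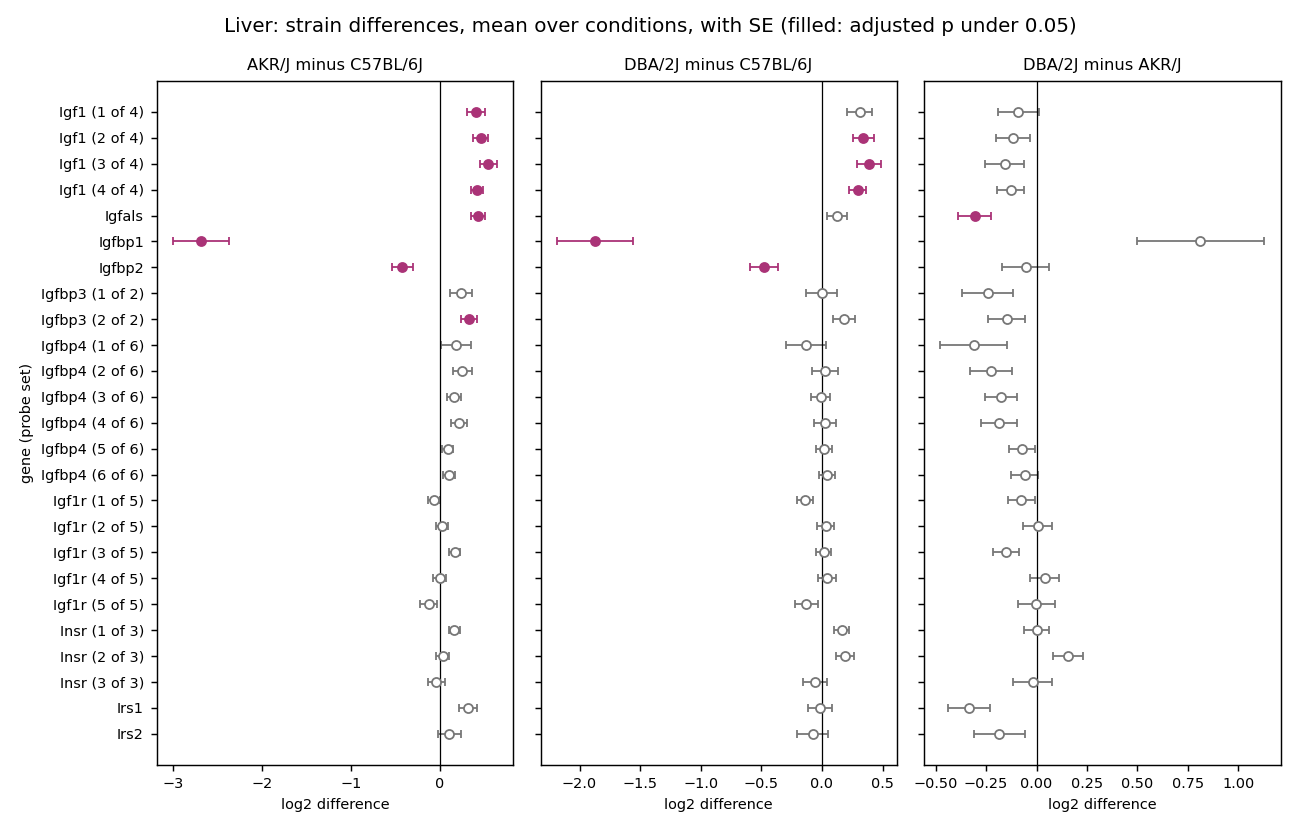
Strain differences in liver at the 25 probe sets, averaged over both conditions, on the log2 scale with their SE; the panels have different horizontal scales and filled points passed at an adjusted p under 0.05. Igfbp1 lies at -2.68 and -1.87 against C57BL/6J, and the Igf1 probe sets lie above 0 in both of these panels.

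The liver genes whose values followed those of a member most closely over the 18 arrays were listed by Pearson correlation. For Igfbp1 they were Klf11 (0.916), Acot1 (0.914) and Trp53inp1 (0.909). For Igf1 they were Gsta4 (0.941), Timd2 (0.932) and Snrpb (0.92), and for Igfals Rabggta (0.931), Hsd3b5 (0.919) and Akr1c19 (0.883). Irs1 was followed by Tmem25 (0.854), N4bp2l1 (0.841) and Cct7 (0.819), Igfbp3 by Stim1 (0.842), Abhd17c (0.829) and Abca8b (0.826), and Igfbp2 by Nxpe4 (0.83), Man2b1 (0.772) and Rad23b (0.764). These arrays share strain and condition, and over deviations from the group means the correlation with Igfbp1 was 0.69 for Klf11, 0.586 for Acot1 and 0.594 for Trp53inp1. Over all 18 pairs these within-group values ran from 0.339 (Irs1 with Cct7) to 0.923 (Igfbp2 with Man2b1), and Igfbp3 with Abca8b gave 0.52.

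In brain, 0 of the 25 probe sets passed limma's test for the mean effect of sleep deprivation, beside 1.73% of all probe sets. An unadjusted p under 0.05 was found at 5459 of all 45037 probe sets, and at 4 of the 25. Those 4 were Irs2 (0.33 ± 0.10, adjusted p = 0.141), Irs1 (0.18 ± 0.07, adjusted p = 0.237), Igf1 at probe set 4 (0.17 ± 0.06, adjusted p = 0.261) and Igfbp4 at probe set 1 (0.16 ± 0.06, adjusted p = 0.212). Within strains 0 passed as well: the share of all probe sets that passed was 0.0377% in C57BL/6J, 0.104% in DBA/2J and 0.3% in AKR/J. In the same order 0, 2 and 1 of the 25 had an unadjusted p under 0.05, beside 2020, 3068 and 3001 of all 45037. The interaction passed at none of the 25 and at 0% of all probe sets. None of the 25 had an unadjusted p under 0.05, beside 1005 of all 45037.

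Irs2 values in AKR/J brain were 5.21, 5.57 and 5.34 in controls and 5.74, 5.87 and 5.94 after sleep deprivation, without overlap (0.48 ± 0.18, adjusted p = 0.529). In C57BL/6J they were 5.39, 5.50 and 5.41 against 5.68, 5.48 and 5.29, and in DBA/2J 5.22, 5.55 and 4.98 against 5.53, 6.18 and 5.41. The arrays overlapped in these strains. Irs1 values in AKR/J brain were 7.27, 7.15 and 7.27 against 7.47, 7.56 and 7.30, again without overlap, and in the other strains they overlapped. The AKR/J brain groups also separated at a probe set each of Igf1 and Igfbp4, and at Igfbp1, which lay at the bottom of the scale. In DBA/2J brain the sleep-deprived arrays lay above the controls at a probe set of Igf1r, and below them at some probe sets of Igfbp4. The share of all probe sets that separate in this way was not counted. Separation alone was therefore not taken as an effect of sleep deprivation.

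The brain results depended on how the arrays were weighed. The calls of the whole array rose with these settings too. With estimated array weights 5 of the 25 passed for the mean effect, all higher, where 8.8% of all probe sets passed: Irs2 (0.24), Irs1 (0.20), Igf1 at probe set 2 (0.25) and Igf1r at 2 probe sets (0.19 each). Without 5 brain arrays of narrow spread or high actin 3′ to 5′ difference, 3 passed, all higher, where 4.14% of all probe sets passed: Igf1 at probe set 2 (0.31, adjusted p = 0.0097), Igf1r at probe set 5 (0.23, adjusted p = 0.0153) and Irs1 (0.24, adjusted p = 0.0276). The latter setting was chosen after the data were seen. Irs2 then stood at 0.17 (adjusted p = 0.249).

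**Figure D5:**
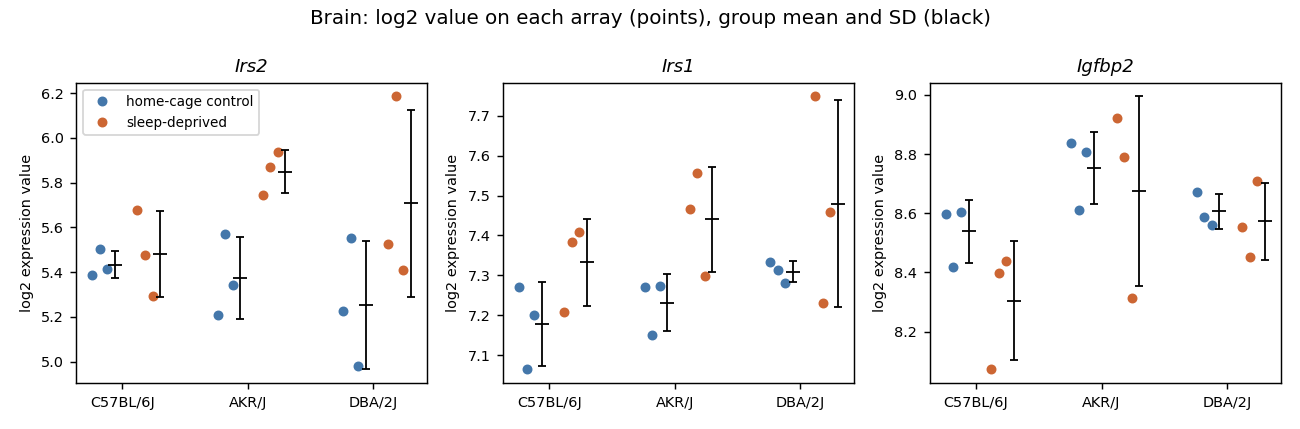
Log2 expression values of Irs2, Irs1 and Igfbp2 in brain for the 3 strains and both conditions; points are single arrays (3 per group) and black marks the group mean with SD. The Irs2 and Irs1 points of AKR/J do not overlap between conditions, as at some other member probe sets, and the mean effect did not pass for any of these genes. The share of all probe sets without overlap was not counted.

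Igfbp1 was at the bottom of the scale in brain, where its values lay between 2.96 and 3.52 and the lowest of any probe set was 2.42. Its brain change was 0.03 ± 0.06, with a 95% interval from -0.10 to 0.17. The Igfbp1 change was larger in liver than in brain by 1.54 ± 0.29 (adjusted p = 0.0032). It was the 1 probe set of the 25 that passed the test of the difference between the tissues (1.38% of all did), and it passed in all 45 alternatives. For Irs1 this difference was 0.22 ± 0.11 and did not pass (adjusted p = 0.423). The liver change of Irs1 is therefore not shown to differ from its brain change. Igf1 probe set 2 gave -0.31 ± 0.15 (adjusted p = 0.386), and passed with array weights (-0.45, adjusted p = 0.008) and without the arrays of doubtful quality (-0.53, adjusted p = 0.0035).

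Strains did not separate these genes in brain at the threshold. For AKR/J against C57BL/6J 0 of the 25 passed (4.56% of all), as for DBA/2J against C57BL/6J (4.18%) and against AKR/J (3.29%). In this order 5, 4 and 0 of the 25 had an unadjusted p under 0.05, beside 6697, 5543 and 4700 of all 45037. The lowest adjusted p-values were those of Igfbp4 at probe set 5, with a difference of -0.30 ± 0.10 in AKR/J (adjusted p = 0.11), and Igfbp2, the binding protein that glia and choroid plexus make, at 0.29 ± 0.10 in AKR/J over C57BL/6J (adjusted p = 0.117). Without AKR/J sleep-deprived array 3, whose value was the lowest of its group at 8.31, Igfbp2 passed (0.38, adjusted p = 0.0091).

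Of the pathway lists in brain, 2 of 18 other IGF ligands, binding proteins and proteases rose, Pappa (0.29 ± 0.07), a protease that frees IGF1 from IGFBP4, and Htra1 (0.23 ± 0.05). In the growth hormone receptor list 1 of 17 rose, Sstr2 (0.30 ± 0.05), a somatostatin receptor, and of 34 adaptors and kinases 2 rose, the pseudokinases Trib1 (0.40 ± 0.10) and Trib2 (0.39 ± 0.07). Of the genes that respond to insulin in liver, Bcl6 (0.44 ± 0.09) and the immediate early gene Egr1 (0.45 ± 0.06) rose and Srebf1 fell by 0.29 ± 0.05. Of 21 FoxO and mTOR genes 0 passed limma's test, and the smallest p there was that of Mtor at -0.17 ± 0.05 (adjusted p = 0.0947). Among all genes 0.951% were higher and 1.6% lower. None of these 8 list genes passed in the fit without AKR/J, where adjusted p-values ran from 0.0519 for Srebf1 to 0.603 for Pappa, and Trib1 and Pappa missed in 18 of 27 and 15 of 26 alternatives. Without only the AKR/J controls labelled ZT 0, 6 of the 8 were lost: Sstr2 (adjusted p = 0.0596), Trib2 (0.0626), Bcl6 (0.11), Htra1 (0.116), Pappa (0.123) and Trib1 (0.161).

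Growth hormone itself, the hormone that drives hepatic Igf1, is made in the pituitary, and Gh values in these brains varied between groups. AKR/J controls read 4.68 to 5.18 and AKR/J sleep-deprived brains 9.83 to 11.41, while the other groups read 10.36 to 12.87, apart from C57BL/6J sleep-deprived brains at 4.24 to 12.16. Of 6 pituitary markers 0 passed limma's test for sleep deprivation in brain, with a median of 0.35. The part of pituitary tissue in the AKR/J brain values of Irs2 and Irs1 was not tested. Markers of neurons (10), astrocytes (6), oligodendrocytes (5) and microglia (10) gave 0 calls in brain, where 0.951% of all genes were higher and 1.6% lower. All neuronal, astrocyte and oligodendrocyte markers had means of log2 5 or above. The oligodendrocyte median was -0.15. By limma's test Mog gave -0.33 (adjusted p = 0.0557), Mag -0.18 (0.0702) and Cnp -0.15 (0.111), while Mbp (-0.0045) and Mobp (0.02) hardly moved.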

How the data were processed

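The 36 arrays held 12 groups of 3 pools, and 45101 probe sets. Values were used as deposited: log2 expression values, which the submitters' processing notes credit to RMA. Neither its version nor which arrays were normalized together is given in the sources used here. No level was compared between tissues or between genes; probe sets of 1 gene were ranked by level only to choose which represents it. The 64 control probe sets took no part in any test. Of the rest, 34945 had 1 gene symbol in the platform annotation (34741 of them matched RefSeq's GRCm38.p6 gene table by identifier), 932 had several and 9160 none. Arrays give no read depth, and the number of pools limits the precision.

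Each tissue was fitted as 6 group means over 18 arrays with limma 3.58.1 in R 4.3.3 (lmFit, eBayes), and all 36 arrays were fitted together for the difference between tissues. P-values are two-sided and Benjamini-Hochberg adjusted over 45037 probe sets, with 0.05 as the threshold. The fit was tested on simulated data. A fold is 2 to the power of the log2 difference.

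Every member's probe set is reported, and a gene's brightest probe set represents it. From each list, up to 4 genes with the largest change among those that passed are named, else the 1 with the smallest p; Klf15 and Acacb, beyond that number, were named after their values were seen. The 3 genes most like a member are those with the highest Pearson correlation. The members and lists were chosen with earlier results of these data known.

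Replicate numbers did not pair the samples: deviations of arrays with the same number had a median correlation of 0.105 in brain and -0.004 in liver. Alternatives were median centring, quantile normalization, a filter on probe sets under log2 5, limma's trend, array weights and the replicate number as a block. Others were fits of 2 groups and leaving out AKR/J, its conflicting controls, or each array. Added after the data were seen was leaving out 6 arrays (5 brain, 1 liver) of narrow spread or high actin 3′ to 5′ difference. The liver array was DBA/2J control 1, with an actin difference of 2.16. Fits of liver alone without it are thus counted under both settings.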

Additional observations from a re-analysis of the deposited data

Results flagged for a closer look

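The effect of sleep deprivation on Igfbp1 differed between the tissues: the liver change exceeded the brain change by 1.54 ± 0.29 on the log2 scale (limma over all 36 arrays, adjusted p = 0.0032), and the liver difference was above 0 in 3 of 3 strains. Alone, C57BL/6J passed (adjusted p = 0.0173, lost without any of 4 of its arrays), AKR/J (0.358, with overlapping groups) and DBA/2J (0.234) did not. Its brain values, 2.96 to 3.52, lay near the lowest value of any probe set in brain (2.42).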

How the results depend on the processing

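No member probe set that passed in the reported fit or an alternative, and no list gene that passed in the reported fit, had the opposite sign in the fits compared; estimates close to 0 can, and 6 of the 12 list medians (6 lists in each of 2 tissues) took both signs. Counts of passing probe sets among the 25 moved by more than 1.5 times as follows. With array weights they were 5 instead of 0 for the mean effect in brain, 1 instead of 0 for AKR/J brain, 3 instead of 0 for each of AKR/J and DBA/2J against C57BL/6J in brain (where 15.7% and 12.3% of all probe sets passed), 2 instead of 1 for DBA/2J against AKR/J in liver and 2 instead of 1 for liver against brain. With quantile normalization they were 1 for the mean effect in brain, 1 for each of the same strain differences in brain, 0 for DBA/2J liver and 2 for DBA/2J against AKR/J in liver. Without the 6 arrays of doubtful quality they were 3 for the mean effect in brain, 1 for AKR/J brain, 1 for AKR/J against C57BL/6J in brain and 2 for liver against brain. DBA/2J against AKR/J in liver gave 2 with the dim filter, with limma's trend and with 2 groups only, and 0 without the controls labelled ZT 0; 2 groups only gave 0 for DBA/2J liver. Smaller moves were in liver: the mean effect gave 3 instead of 2 with array weights, without AKR/J and without the doubtful arrays. AKR/J against C57BL/6J gave 9 instead of 8, and DBA/2J against C57BL/6J 6 instead of 5, with array weights, the dim filter, the trend, median centring and without the doubtful arrays, and the former 6 without the controls labelled ZT 0. The causes were not tested. Over all probe sets the mean effect in brain gave 778 calls, against 3965 with array weights, 1866 without the doubtful arrays, 499 with median centring, 300 without the controls labelled ZT 0 and 85 without AKR/J; in liver it gave 1622, against 982 and 783 in these last settings, and the difference between tissues 623, against 301, 202 and, with array weights, 1462. Quantile normalization gave 1374 in brain.

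Leaving out 1 array at a time, the counts ran from 0 to 0 in brain, except 0 to 1 for AKR/J against C57BL/6J. In liver they ran from 2 to 3 for the mean effect, 0 to 2 in C57BL/6J, 0 to 1 in AKR/J, 0 to 2 in DBA/2J, 0 to 1 for the interaction, 7 to 9, 5 to 7 and 0 to 2 for AKR/J against C57BL/6J, DBA/2J against C57BL/6J and DBA/2J against AKR/J, and from 1 to 1 for liver against brain. With the replicate number as a block the count of the mean liver effect was 2 and the other counts of members were as in the fits without it; 9 of 18 brain arrays and 7 of 18 liver arrays correlated best with their own number. Signal near the bottom of the scale limits Igf1r and the dimmer Insr probe sets in liver and Igfbp1 in brain. With 3 pools per group, every comparison within a strain is limited.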
